A study of Mus musculus with 6 samples.

Results

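Distal ASH2L peaks without H3K4me3 were the ASH2L CUT&RUN peaks on chr1 to chr19 whose midpoint lay more than 2500 bp from every annotated transcript start site and which overlapped no peak of the H3K4me3 list by even 1 bp. They numbered 485 of the 2464 ASH2L peaks, or 19.8% of the 2452 on chr1 to chr19. The members were chosen by measured values, because the ASH2L peak positions and the absence of a listed H3K4me3 peak both came from these libraries. Their distance from start sites, their lack of H3K4me3 and the passing of the ASH2L peak threshold are therefore part of the definition.

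CUT&RUN, in which an antibody brings a nuclease to its target and the released DNA is sequenced, was carried out on the mouse embryonic stem cell line E14. The study had 6 samples, 2 of each kind. HA-ASH2L E14 cells were used with anti-HA or with anti-H3K4me3, and the parental E14 cells served with anti-HA alone. By the study's methods, HA-ASH2L came from a doxycycline-inducible transgene introduced by transposition, in cells grown from picked single colonies. The labels also speak of an induced transgene, with 48 h of doxycycline, but give the genotype as a knock-in, so that the sources differ on whether the tag sits on added or on endogenous ASH2L. The parental anti-HA libraries were not analysed here, and binding of the anti-HA antibody without the tag was not tested. Because peaks were called on pooled duplicates, no peak has a value for a single sample, no spread between duplicates could be computed and no test was run. The 95% Wilson intervals of shares cover counting error alone. They compare regions of 1 merged library, which are not replicates.

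ASH2L is a core subunit of the MLL/SET1 complexes, which methylate lysine 4 of histone H3 together with WDR5, RBBP5 and DPY30. Trimethylation, H3K4me3, is concentrated at the start sites of active and poised genes, and most strongly at CpG islands, whereas monomethylation by MLL3 and MLL4 marks enhancers. An ASH2L peak outside H3K4me3 can thus be looked at for its place in or between genes, its sequence and its distance to the nearest H3K4me3.

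The label was checked against the H3K4me3 list at 20 genes of naive pluripotency, which embryonic stem cells express. Only 12 of the 20 had a listed H3K4me3 peak over a start site. The other 8 were Pou5f1, Sox2, Nanog, Sall4, Utf1, Fgf4, Dppa5a and Tdgf1, whose start sites lay 3354 bp to 25135 bp from the nearest listed peak. Pou5f1, Sox2 and Nanog encode the core transcription factors of these cells. A region without a listed peak is therefore not shown to lack H3K4me3, and "without H3K4me3" below means only that no listed peak overlaps.

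The sequences of 300 bp centred on the summit are shown first for the 5 members with the highest p-value score among those with no more than 50% soft-masked repeat in that stretch. They are printed to show the CG content of the strongest members, and capitals mark each CG on the forward strand of GRCm38. The gene of each name is the nearest start site.
Gm44436, chr6:103649071-103649370: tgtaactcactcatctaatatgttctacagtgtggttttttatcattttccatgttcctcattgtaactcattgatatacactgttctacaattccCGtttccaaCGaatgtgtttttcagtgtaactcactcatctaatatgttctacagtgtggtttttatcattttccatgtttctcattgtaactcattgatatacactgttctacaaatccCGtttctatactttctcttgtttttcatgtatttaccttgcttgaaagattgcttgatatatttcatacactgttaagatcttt
St6galnac1, chr11:116764830-116765129: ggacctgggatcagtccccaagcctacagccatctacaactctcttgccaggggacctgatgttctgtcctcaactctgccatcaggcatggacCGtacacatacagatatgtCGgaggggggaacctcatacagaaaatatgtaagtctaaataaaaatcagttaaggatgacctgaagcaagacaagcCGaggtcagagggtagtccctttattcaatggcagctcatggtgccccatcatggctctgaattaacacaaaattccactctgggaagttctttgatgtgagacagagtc
Zfp992, chr4:146456587-146456886: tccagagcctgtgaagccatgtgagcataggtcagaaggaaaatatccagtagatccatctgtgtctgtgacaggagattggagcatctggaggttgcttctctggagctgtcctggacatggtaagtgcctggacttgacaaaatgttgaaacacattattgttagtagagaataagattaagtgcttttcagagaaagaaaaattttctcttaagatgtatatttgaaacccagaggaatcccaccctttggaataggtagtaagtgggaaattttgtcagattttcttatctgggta
Gm48668, chr12:20233122-20233421: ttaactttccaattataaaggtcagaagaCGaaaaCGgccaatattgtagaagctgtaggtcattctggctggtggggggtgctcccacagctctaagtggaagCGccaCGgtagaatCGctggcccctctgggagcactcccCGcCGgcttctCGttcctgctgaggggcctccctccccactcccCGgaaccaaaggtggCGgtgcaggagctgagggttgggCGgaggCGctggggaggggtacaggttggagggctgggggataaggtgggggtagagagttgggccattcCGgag
Adk, chr14:21311952-21312251: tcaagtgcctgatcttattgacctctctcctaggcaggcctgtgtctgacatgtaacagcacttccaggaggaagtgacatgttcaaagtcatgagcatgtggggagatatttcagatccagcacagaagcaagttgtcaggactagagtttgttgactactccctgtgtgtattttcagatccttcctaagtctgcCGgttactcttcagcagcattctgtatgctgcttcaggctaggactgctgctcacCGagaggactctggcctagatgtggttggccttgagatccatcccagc
The stretch near Zfp992 held 0 CG, those near Gm44436 and St6galnac1 held 3 each, and that in Adk held 2. The stretch near Gm48668 held 13. GC content ran from 31.7% near Gm44436 to 60.7% near Gm48668. Near Gm44436, a run of 40 bases starting at position 1 recurred at position 122, the longest exact repeat within any of these stretches.

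One member held the genome matches of 3 of the study's guide RNAs and is shown for that reason, with capitals marking the matches of gRNA2-2 and gRNA2-3 in the 300 bp at its summit.
Dnmt3c, chr2:153705483-153705782: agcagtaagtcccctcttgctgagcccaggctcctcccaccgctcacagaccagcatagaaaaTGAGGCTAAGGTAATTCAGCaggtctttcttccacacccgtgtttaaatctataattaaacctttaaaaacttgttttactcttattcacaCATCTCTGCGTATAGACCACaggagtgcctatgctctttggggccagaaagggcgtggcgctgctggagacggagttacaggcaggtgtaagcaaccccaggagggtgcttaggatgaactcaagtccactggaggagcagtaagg
Dnmt3c encodes a DNA methyltransferase of the male germ line that silences young retrotransposons. The whole peak, chr2:153705326-153706026, also held the match of gRNA2-1 on the reverse strand at chr2:153705359-153705378. Each of these guides matched chr1 to chr19 exactly once, although a figure of the study names another chromosome for this target. The other 3 guides matched chr4, in no member. The member had 27 tags and a fold enrichment of 6.29, its midpoint lay in an intron of Dnmt3c and 9024 bp from the nearest start site, and the nearest H3K4me3 peak was 6554 bp away. Its p-value score of 54.85 was slightly below the members' median of 55.75.

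Most members were weak peaks, and a few were far stronger than the rest. The tags are the deposited number of sequence tags in the peak, the fold enrichment is the deposited ratio of the summit to the local background, and the score is −log10 of the peak caller's p-value multiplied by 10, with 50 as the cutoff. The median was 24 tags (quartiles 21 and 27) and the median fold enrichment 5.39 (quartiles 4.94 and 6.29). The score was under 60 in 347 of the 485 members (71.5%, interval 67.4% to 75.4%). The same was true of 59.0% of the 210 distal peaks with H3K4me3 (52.3% to 65.5%) and of 34.8% of the 1599 peaks within 2500 bp of a start site with H3K4me3 (32.5% to 37.2%). Members had fewer tags than either, with medians of 27.5 and 36 tags in those peaks, and they were narrower, at a median of 552 bp against 646 bp and 788 bp. Tags per 100 bp of peak differed much less, with medians of 4.25 in the members, 4.32 in distal peaks with H3K4me3 and 4.48 near start sites with H3K4me3. Fold enrichment did not follow tags, since its medians in those peaks were 5.29 and 5.28, close to that of the members.

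**Figure D1:**
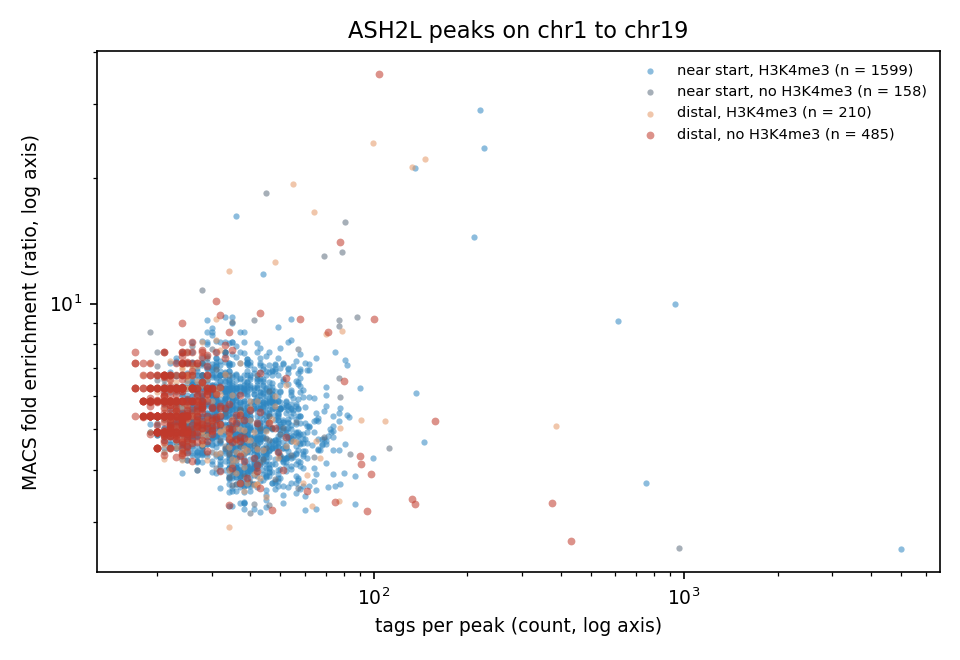
Tags per peak (x, count, log axis) against fold enrichment (y, ratio, log axis) for each ASH2L peak on chr1 to chr19, coloured by distance from start sites and by H3K4me3 overlap. Most of the 485 members crowd at the lowest tag numbers around their median of 24 tags, and 1 member stands at the top with a fold enrichment of 35.32.

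The member with the highest fold enrichment was chr6:103649064-103649584 in an intron of Chl1, a neuronal cell adhesion gene. It had 104 tags, a fold enrichment of 35.32 and a score of 699.95, and the H3K4me3 peak nearest to it was 136182 bp away. The 300 bp at its summit are those shown above under Gm44436, in which a run of 40 bases recurs. Whether tags from similar sequence elsewhere gather at this member was not tested. The next highest was chr14:19415506-19416297 in a coding exon of the predicted gene Gm21738, with 78 tags and a fold enrichment of 14.05. Soft-masked repeat covered 84.3% of the peak in Gm21738, and the 31-base words at its summit occurred a median of 26 times in the genome. Only 1 more member reached a fold enrichment of 10, chr1:85087989-85088642 in C130026I21Rik with 31 tags and 10.15. The remaining 5 of the 8 highest lay between 8.99 and 9.50, and were chr17:54760693-54761372, chr1:85345243-85345901, chr11:116764384-116765885 in St6galnac1, chr12:20232780-20233728 in Gm49692 and chr4:147430867-147431387 in C230088H06Rik. St6galnac1 encodes a sialyltransferase. Sequence found more than once was common among these 8. Single-copy words made up 57.4% of the summit in Chl1, 55.2% in C130026I21Rik, 50.4% at chr1:85345243-85345901 and 21.1% at chr17:54760693-54761372, where the words occurred a median of 73 times, whereas the tenth percentile of all members was 73.5%. In St6galnac1 and Gm49692 each word was single-copy, and in C230088H06Rik 80% were.

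Most of the 8 members with the most tags were wide, with low fold enrichments. The first was chr11:116752989-116759165 in an exon of the noncoding gene BC018473, 6177 bp wide, with 431 tags and a fold enrichment of 2.70, the lowest of all members. The second was chr9:123929963-123934480, whose nearest start site belongs to the chemokine receptor gene Ccr1, with 374 tags over 4518 bp and a fold enrichment of 3.33. It was also the member closest to an H3K4me3 peak, at 39 bp. The third was chr4:146456043-146458174 in an intron of the zinc finger gene Zfp992, with 157 tags. Then came chr13:119614907-119617655 with 136 tags and chr13:12925317-12927382 with 133, both intergenic and far apart on the chromosome. The member in Chl1 came sixth and was the narrowest of the 8, at 521 bp. The last 2 of the 8 were both near BC018473, at chr11:116764384-116765885 with 100 tags and chr11:116744107-116745762 with 98.

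The rule cut through peaks on both sides of each limit. Just beyond 2500 bp from a start site were chr8:70732361-70732917 in the phosphodiesterase gene Pde4c at 2527 bp with 22 tags, chr16:31425138-31426386 in Bdh1 at 2529 bp with 51 tags and chr11:78268511-78268873 in 2610507B11Rik at 2559 bp with 18 tags. The nearest ASH2L peaks that were left out on this ground lay at 2473 bp (Osbpl9, 20 tags), 2465 bp (Eya2, 29 tags) and 2440 bp (Scd3, 21 tags). The peaks left out with the shortest overlap with H3K4me3 shared 51 bp near Gm9075, 92 bp near Rasl11b and 214 bp near Tnfaip6, with 55, 29 and 20 tags. The 5 members closest to H3K4me3 without overlap, at 39 bp to 180 bp and described below, had 374, 24, 22, 22 and 28 tags.

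Introns held more of the members than of the distal genome. Of the 485 members, 250 had their midpoint in an intron (51.5%, interval 47.1% to 56.0%), compared with 41.7% of all bases that lie over 2500 bp from start sites and outside H3K4me3 peaks. Intergenic members numbered 196 (40.4%, 36.1% to 44.8%), against 55.5% of those bases. Coding exons held 22 members (4.54%, 3.01% to 6.77%) and other exons 17 (3.51%, 2.20% to 5.54%), against 0.843% and 1.90% of the bases. In distal peaks with H3K4me3, introns held 37.6% (31.3% to 44.3%) and coding exons 20% (15.2% to 25.9%), so that the members were more often intronic and less often in coding sequence, with intervals that did not overlap. The intergenic share, 35.7% (29.5% to 42.4%) in those peaks, had an interval that overlapped that of the members.

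**Figure D2:**
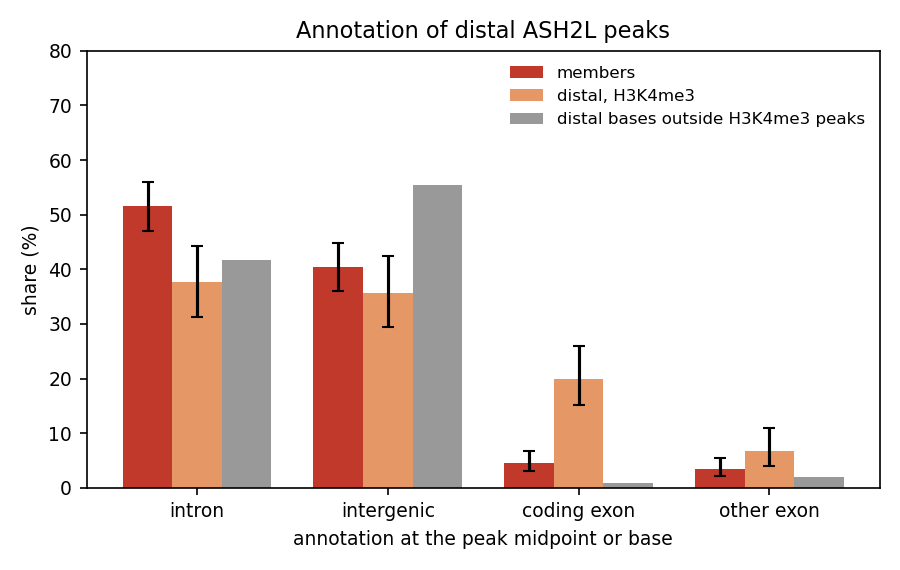
Share (y, percent) of members, of distal ASH2L peaks with H3K4me3 and of distal bases outside H3K4me3 peaks in introns, intergenic sequence, coding exons and other exons (x). Error bars are 95% Wilson intervals, and introns hold 51.5% of the members against 41.7% of the bases.

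The members in coding exons differed from the rest in composition. Their median GC content was 57.3% and their median distance to H3K4me3 3920 bp, against 47.3% and 9796 bp for members in introns. They also lay nearer to start sites, at a median of 5876.5 bp against 12245 bp. Coding exons without a member were not measured, so these values are not shown to be particular to the members. They included peaks in Ep300, which encodes a histone acetyltransferase, with 40 tags, in Ncor1, a corepressor gene, with 21 tags, and in Plec, which encodes the cytolinker plectin, with 90 tags. These 3 were picked from the list after their values were seen. Over the 22 members in coding exons, the median of 25.5 tags was close to the 23 of intronic and the 24 of intergenic members.

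Genes that host members mostly had H3K4me3 at a start site, at a share close to that of long genes in general. A protein-coding gene was the host of 247 members (50.9%, interval 46.5% to 55.4%), and lincRNA genes hosted 24. Protein-coding genes span 38.1% of the distal bases outside H3K4me3 peaks and hosted 58.1% of distal peaks with H3K4me3 (51.3% to 64.6%). These members lay in 232 protein-coding genes with a median length of 146882 bp, compared with 17629 bp for all 20807 protein-coding genes of chr1 to chr19. The distance from start sites that the rule demands keeps short genes from hosting members, so that this difference is no result. An H3K4me3 peak covered a start site of 208 of the 232 (89.7%, interval 85.1% to 92.9%), against 68.7% of all protein-coding genes. Among the 1453 genes at least as long as the median host it was 91.2% (89.6% to 92.5%), a share within the interval of the hosts, which therefore did not stand out. Those genes include the longer hosts, had a median length of 242585 bp, above that of the hosts, and were not matched to them on length. An ASH2L peak within 2500 bp of a start site was present in 39 of the hosts (16.8%, 12.5% to 22.2%), in 12.7% of the long genes (11.1% to 14.5%) and in 8.93% of all genes. Of the 215 members in numbered introns of protein-coding genes, 42 were in the first intron and 32 in the second, and they were spread along the hosts, with 32.6% in the first part of 3 equal parts of the gene and 29.8% in the last.

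Few genes held more than 1 member. Of the protein-coding hosts, 220 held 1, 9 held 2 and 3 held 3. Those with 3 were C130026I21Rik, Raet1e and Gm20388, an annotated locus of 4434882 bp that spans many other genes. Raet1e belongs to the family of ligands of the NKG2D receptor, and its members had 29, 35 and 36 tags. Neither C130026I21Rik nor Raet1e had an H3K4me3 peak over a start site, whereas Gm20388 and the hosts of 2 members did. Foxp1, a forkhead transcription factor gene, held chr6:99087090-99087559 with 21 tags and chr6:99139944-99140510 with 24 tags, both in intron 5 of the host transcript. The potassium channel gene Kcnh1 held members of 22 and 24 tags, which were 96419 bp and 9376 bp from H3K4me3. The kinase gene Map2k5 held members of 27 and 21 tags with fold enrichments of 7.22 and 6.74. In Dnah8, which encodes an axonemal dynein heavy chain, the members had 46 and 52 tags. The SUMO ligase gene Nsmce2 held members of 26 and 19 tags, and the Arf GTPase-activating gene Agap1 held members of 18 and 23. Ksr2, which encodes a scaffold of the MAP kinase pathway, held members of 32 and 28 tags. The last of the hosts of 2 members were Garem1 with 49 and 22 tags and Plekhm3 with 25 and 22 tags.

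Genes of 7 lists of 159 genes in all, on pluripotency, MLL/SET1 complexes, DNA methylation, Polycomb, the germ line, neuronal adhesion and developmental transcription factors, were rarely next to a member. Hosts among them were 2 of the 159 (1.26%), while 1.14% of all protein-coding genes had a member between their ends. One was Dnmt3c, described above, and the other was Cdh13, the gene of an atypical cadherin, with chr8:119038139-119038666 in an intron, 22 tags and a fold enrichment of 5.01. Among start sites of every gene type, the one nearest to a member belonged to the same 2 of the 159 (1.26%), against 1.18% of all protein-coding genes. Among start sites of protein-coding genes only, it belonged to Dnmt3c and to Rybp, a Polycomb gene, again 2 of the 159 (1.26%), against 2.17% of all protein-coding genes. The start site of Rybp lay 211911 bp from chr6:100075121-100076027, which had 37 tags. For pluripotency, MLL/SET1 complexes, the germ line and developmental transcription factors, 0 listed genes hosted a member or had the nearest start site by either definition. The counts are near the background and set no list apart.

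Over all members, the nearest start site belonged to a protein-coding gene in 253 (52.2%), to a lincRNA gene in 60 and to a processed pseudogene in 56. The median distance was 13195 bp (quartiles 6209 and 29995 bp), whereas the bases of the distal genome had a median of 21362 bp. The members farthest from a start site were chr6:20107139-20107631 at 319332 bp, chr8:127914515-127914945 at 317024 bp and chr1:143389429-143389838 at 246944 bp. Members lay downstream of the nearest start site in 52.2% (interval 47.7% to 56.6%), a share that includes an even split.

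Members were nearer to H3K4me3 than the distal genome was. The median distance from the edge of a member to the edge of the nearest H3K4me3 peak was 10071 bp (interval of the median 8729 to 11655 bp, quartiles 3951 and 27927 bp), against 27992 bp (7987 and 88102 bp) for every hundredth base of the distal genome outside H3K4me3 peaks. An H3K4me3 peak lay within 5000 bp of 142 members (29.3%, interval 25.4% to 33.5%) and of 17.8% of these bases. Within 50000 bp the shares were 87.2% (83.9% to 89.9%) and 63.0%. When only H3K4me3 peaks at or above the median fold enrichment were counted, for membership and for distance, both medians rose, to 18437 bp for the resulting 591 peaks and to 39389 bp for the distal bases. Distances of members run from the edge of a peak and those of bases from the base itself, and the members were a median of 552 bp wide. The members were nearer to start sites as well, as given above, and the part of this in the distance to H3K4me3 was not tested.

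**Figure D3:**
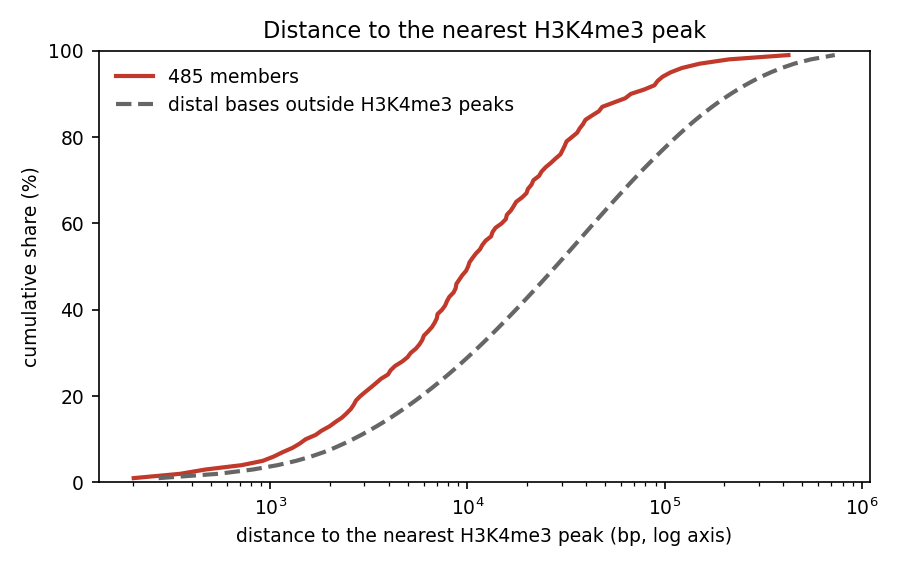
Cumulative share (y, percent, from the first to the ninety-ninth percentile) of members and of distal bases outside H3K4me3 peaks by distance to the nearest H3K4me3 peak (x, bp, log axis). The line of the members lies to the left, with a median of 10071 bp against 27992 bp.

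The nearest H3K4me3 peaks were mostly not at start sites, as was true of the H3K4me3 list as a whole. They covered a start site for 124 members (25.6%, interval 21.9% to 29.6%), while 30.6% of all peaks of the H3K4me3 list did. Their median was 91 tags (quartiles 46 and 229), and the H3K4me3 peaks on distal ASH2L peaks had a median of 197 tags. Their median fold enrichment was 6.89, and that of the whole H3K4me3 list was 6.46. Besides the member near Ccr1, those closest to H3K4me3 were chr15:88946644-88947189 in the tubulin glycylase gene Ttll8 at 44 bp, chr17:21067787-21068318 near Gm5681 at 78 bp, chr3:84007908-84008461 in Tmem131l at 129 bp and chr4:63408400-63409110 near Akna at 180 bp. Their tags were 24, 22, 22 and 28. A gap this short is within the width of a peak, and 28 members had H3K4me3 within 1000 bp (5.77%, 4.02% to 8.22%), against 3.68% of the distal bases.

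At the other end, the farthest members lay in the immunoglobulin heavy chain variable cluster, chr12:114395463-114396104 near Ighv6-3 at 1172256 bp and chr12:114130802-114131242 near Ighv12-2 at 907595 bp. They had 29 and 19 tags. The next were chr6:20107139-20107631 at 579453 bp, chr16:66813523-66814013 in the adhesion gene Cadm2 at 577040 bp and chr17:54759901-54760445 at 425722 bp. The last of these was soft-masked along its whole width, and the words at its summit occurred a median of 48 times in the genome. The 62 members over 50000 bp from H3K4me3 were intergenic in 56.5%, against 36.6% of the 142 within 5000 bp. Their median tags were 22 and 24, their median fold enrichments 5.84 and 5.39, and their median GC 47.0% and 49.7%. Fewer than 50% of the words at the summit were single-copy in 8 of those 62 and in 4 of those 142.

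In sequence, members stood between the distal genome and the other ASH2L peaks. Their median GC content in 300 bp at the summit was 48.0% (quartiles 43.7% and 52.0%) and their mean 48.0%, whereas 41.3% of the distal bases outside H3K4me3 peaks were G or C. Distal peaks with H3K4me3 had a median of 55.3%, peaks near start sites without H3K4me3 53.3% and those near start sites with H3K4me3 70.0%. A GC content of 60% or more was found in 17 members (3.51%, interval 2.20% to 5.54%), in 31% of distal peaks with H3K4me3 (25.1% to 37.5%) and in 88.7% near start sites with H3K4me3 (87.1% to 90.2%). The ratio of observed to expected CpG had a median of 0.19 in members, 0.40 in distal peaks with H3K4me3 and 0.85 near start sites with H3K4me3. This ratio is high in CpG islands, and 90% of the members had a ratio of 0.40 or less.

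**Figure D4:**
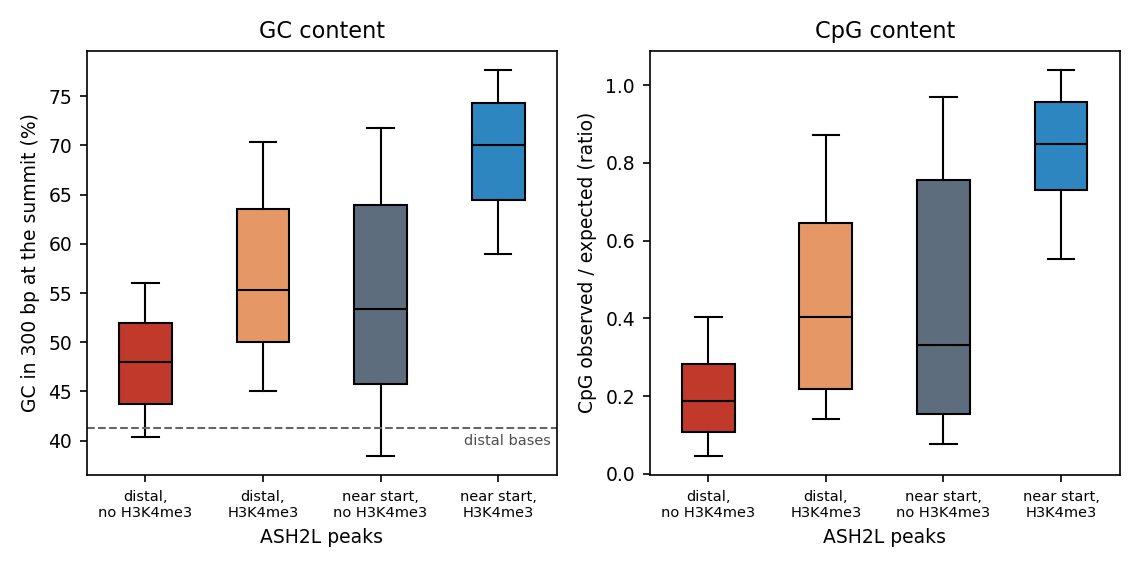
GC content (left, percent) and the ratio of observed to expected CpG (right) in 300 bp at the summit for ASH2L peaks by distance from start sites and by H3K4me3 overlap. Boxes show quartiles with the median, whiskers run from the tenth to the ninetieth percentile, and the dashed line is the GC content of distal bases. Members have the lowest medians of the 4, 48.0% and 0.19.

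Short motifs gave the same order for the GC box and another for AP-1. The GC box, GGGCGG on either strand, was in 27 members (5.57%, interval 3.85% to 7.98%), in 30% of distal peaks with H3K4me3 (24.2% to 36.5%) and in 71.8% near start sites with H3K4me3. All 7986009 windows of 300 bp laid end to end on chr1 to chr19 held it in 2.94%, and 36% of the RefSeq promoters did. The CTCF core AGGGGGC was in 3.09% of members (1.88% to 5.04%), 11.0% of distal peaks with H3K4me3 (7.41% to 15.9%) and 2.38% of windows. The AP-1 site TGACTCA was in 37 members (7.63%, 5.59% to 10.3%) and in 4.71% of windows, a share below the interval of the members. It was in 4.29% of distal peaks with H3K4me3 (2.27% to 7.94%) and in 5.70% near start sites without H3K4me3 (3.03% to 10.5%). Both of these intervals overlapped that of the members. Near start sites with H3K4me3 the share was 2.25% (1.63% to 3.10%). The E box CACGTG was in 4.95% of members (3.35% to 7.26%) and 2.99% of windows. For the OCT4 octamer ATGCAAAT the members had 1.24% (0.568% to 2.67%) and the windows 2.57%. The ESRRB word TCAAGGTCA gave 1.24% (0.568% to 2.67%) against 0.648%, the ETS word CCGGAAG 1.65% (0.838% to 3.22%) against 0.867%, and the YY1 word AAGATGGC 2.27% (1.27% to 4.02%) against 2.65%. These 4 intervals, the octamer included, contained the share of the windows, whereas that of the E box lay above it. The E box share was similar in the other ASH2L peaks, at 5.24% in distal peaks with H3K4me3 and 5.06% and 5.94% near start sites without and with H3K4me3. The GC box and the CTCF core can share bases, the words were searched on both strands, and a match is a description of the letters and not a bound site.

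Repeats were less frequent in members than in the distal genome, and a minority of members lay in them. Soft-masked sequence made up a mean of 21.8% of a member (median 13.3%) and 35.0% of the distal bases. It covered more than 50% of 58 members (12.0%, interval 9.37% to 15.1%), of 5.24% of distal peaks with H3K4me3 (2.95% to 9.13%) and of 0.5% near start sites with H3K4me3. Peaks near start sites without H3K4me3 were like the members in this, at 10.8% (6.83% to 16.6%). At 335 summits (69.1%) each 31-base word of the 300 bp occurred once in the genome, as at 80.5% of distal peaks with H3K4me3 and at 75.3% and 93.6% of those near start sites without and with H3K4me3. In 20 members (4.12%, 2.69% to 6.28%) fewer than 50% of the words did, and their median of 24 tags equalled that of all members. The share was 4.76% (2.61% to 8.54%) in distal peaks with H3K4me3 and 8.86% (5.35% to 14.3%) near start sites without H3K4me3, but 0.813% (0.476% to 1.39%) near start sites with H3K4me3. Among the 11 members with a score of 100 or more, 3 were of this kind.

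Members were scattered over the chromosomes with a few dense places. Chromosome 4 had 48 members, or 31.6 per 100 Mb of known sequence, and chr11 had 35, or 29.5. The fewest per length were on chr14, with 10 members and 8.23 per 100 Mb, and on chr3, with 20 and 12.8, against 20.2 over all autosomes. As a share of the ASH2L peaks of the chromosome, members ranged from 11.7% on chr9 to 26.3% on chr15, and they made up 24.6% on chr4 and 17.6% on chr11. Chromosome 11 also had the most ASH2L peaks of the autosomes, 199.

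**Figure D5:**
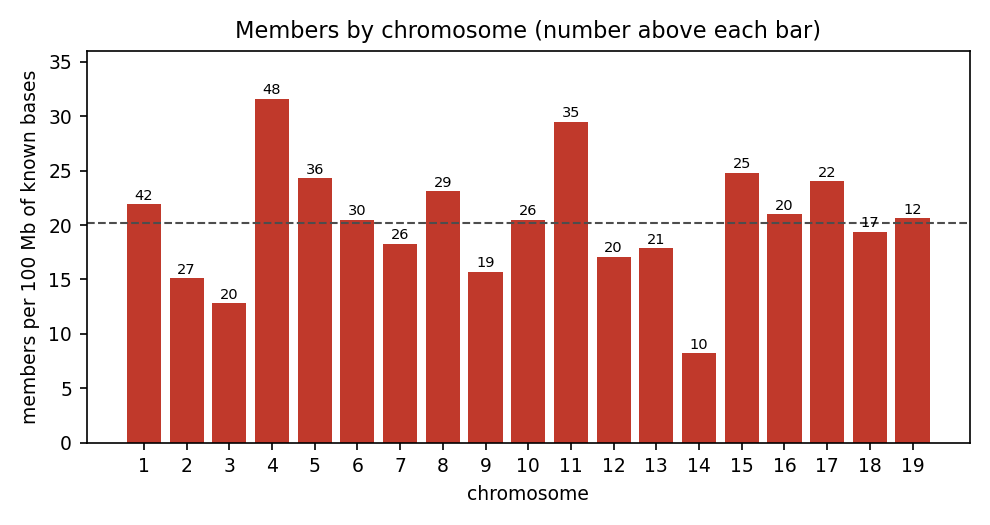
Members per 100 Mb of known bases (y) on each autosome (x), with the number of members above each bar and a dashed line at 20.2 for all autosomes. Chromosome 4 is highest at 31.6 and chr14 lowest at 8.23.

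Another member lay within 100000 bp of 63 members (13.0%, interval 10.3% to 16.3%), and 422 had none. Such a share was not computed for other ASH2L peaks or distal positions, so whether members cluster more than those was not tested. The 63 formed 20 pairs and 7 larger groups. The largest group had 5 members over 115031 bp, chr1:85230871-85345901, in and around C130026I21Rik and Gm2619. Its members had 20 to 32 tags and fold enrichments of 5.01 to 9.37, and only 20.4% to 50.4% of the words at their summits were single-copy. With 2 further members in C130026I21Rik, the megabase that holds the group had 7, the most of any on the autosomes.

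The next groups of 3 were on chr4. One, chr4:146456043-146536640, lay in and next to the zinc finger genes Zfp992 and Zfp981 with 157, 34 and 35 tags, and another, chr4:147419327-147437378, lay in C230088H06Rik with 31, 24 and 24 tags and fold enrichments of 7.64, 8.99 and 8.09. The third, chr4:140930542-140983354, ran from Padi2, which encodes an arginine deiminase, to Sdhb, a subunit gene of succinate dehydrogenase, and ended upstream of the lysosomal ATPase gene Atp13a2, 3781 bp from its start site at the last midpoint, with 21, 30 and 27 tags. Single-copy words made up 52.2% to 91.1%, 74.4% to 80% and 75.2% to 100% of the summits in these groups.

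The group with the most tags was chr11:116744107-116765885, in Gm11735, BC018473 and St6galnac1, with 98, 431 and 100 tags in 21779 bp. Its single-copy share was 16.3% in Gm11735, 91.5% in BC018473 and 100% in St6galnac1, so that high tag numbers were found at summits of both kinds. Near the pseudogene Tmem181b-ps, chr17:6492434-6532706 held members of 21, 24 and 25 tags, with single-copy shares of 17.8% to 54.1%. In Garem1, which encodes a regulator of ERK signalling, and next to it, chr18:21125393-21214382 held members of 91, 49 and 22 tags, with single-copy words only. The groups on chr1, chr11 and chr17 each had summits with fewer than 50% single-copy words, and whether copies of 1 sequence share tags there was not tested.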

How the data were processed

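The authors mapped trimmed CUT&RUN reads to mm10 with Bowtie2, kept short fragments by a size limit, merged duplicates and called peaks with MACS. The headers give tag sizes of 151 bp and 142 bp, both above that limit, so whether the lists hold short fragments only is not settled. They name MACS 1.4.3, another release than the methods, no control library, a p-value cutoff of 1e-05 and 1 tag kept per position, which left 25677963 tags for ASH2L and 27328071 for H3K4me3. The deposited tag counts are whole numbers per peak and are not normalized. As a ratio, the fold enrichment sets the summit against the background modelled by the authors' caller. The deposited p-value score is −log10 p multiplied by 10. Without a control, sequence that gathers tags with any antibody stays in the lists, and peaks near the cutoff depend on the local background.

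Peaks were annotated by midpoint with GENCODE vM21 on GRCm38.p6 (mm10), in the order coding exon, other exon, intron, intergenic. Word copies were counted on both strands over chr1 to chr19, X and Y. Promoters (31365) came from RefSeq on GRCm38.p6. Members joined by gaps of up to 100000 bp formed a group. Sequence from chr18 was not shown. Members named were the 8 highest by fold enrichment and by tags, the 5 farthest from and nearest to H3K4me3, the 3 farthest from and nearest to a start site, those in groups of 3 or more, at guide RNAs, at listed genes and in protein-coding hosts of 2 or more. The 5 shown by sequence were taken by p-value score, and those in Ep300, Ncor1 and Plec were chosen after their values were seen. Members and lists were chosen with earlier results of these data known. Python 3.11.15, numpy 2.4.6, pandas 2.3.3 and scipy 1.17.1 were used, and functions were tested on simulated data.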

Additional observations from a re-analysis of the deposited data

How the results depend on the processing

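With a start site distance of 10000 bp, 285 members were left, their median distance to H3K4me3 was 13705 bp and 7.72% had another member within 100000 bp. A p-value score of at least 60 left 138 members with a median fold enrichment of 5.84, and 47.1% of them were in introns. With the H3K4me3 peaks at or above the median fold enrichment, the median distance was 18437 bp. Without soft-masked peaks, 10.1% had another member within 100000 bp, and this share was 3.92% for 10000 bp and 47.8% for 1000000 bp. These alternatives change the members, the H3K4me3 peaks or the distance themselves. Leaving out multi-copy peaks, an alternative chosen after seeing the data, left 465 members with a median fold enrichment of 5.39 and a median distance of 9821 bp. Of 89 alternative values for 10 results, 73 stayed within the interval of the value reported, or within 1.5 times for a count. No paired analysis was possible because the lists merge the duplicates. For the same reason no replicate could be left out. Most scores lie close to the cutoff, and no other depth was tried.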

Other observations

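On the sex chromosomes, the ASH2L list held 7 peaks on chrX and 4 on chrY. By the same rule, 0 on chrX and 1 on chrY lay over 2500 bp from start sites without H3K4me3. The latter, chrY:90812299-90812841, had 26 tags and a fold enrichment of 5.84, lay 5818 bp from an H3K4me3 peak and was soft-masked along 99.1% of its width.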
